A study of Mus musculus with 4 samples.

Results

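CD4 T cells that carried messenger RNA of the chemokine gene Ccl4 without much Il2 were examined among stimulated mouse splenic T cells. A cell counted as Ccl4-producing when it held at least 3 Ccl4 UMIs (unique molecular identifiers, each standing for a captured transcript), fewer than 3 Il2 UMIs, no Foxp3 or Zbtb16 UMI and fewer than 2 Egr3 UMIs. This rule selected 293 of 17969 cells with CD3 transcripts, and "producing" refers here to RNA only, since no protein was measured. Cells within the same Il2, Foxp3, Zbtb16 and Egr3 limits are called gated cells (14566 cells), and 13942 of them had no Ccl4 UMI and served as Ccl4-negative cells. A second contrast used 618 Il2-producing cells, with at least 3 Il2 UMIs, no Ccl4 UMI and the same limits on Foxp3, Zbtb16 and Egr3.

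T cells sorted for CD3 and CD4 from spleens of C57BL6/J mice, either wild type or lacking Irf5 on both alleles (Irf5-/-) per the labels, were all stimulated for 6 hours with beads carrying antibodies to CD3 and CD28. Each genotype had 1 female and 1 male droplet library with 3′ chemistry. The labels give no age, no number of mice per library and no batch, and all cells were stimulated, so no resting control was analysed here. Values listed for 4 libraries follow the order female labelled knockout, female labelled wild type, male labelled knockout and male labelled wild type.

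CCL4, also known as MIP-1β, is a CC chemokine that T cells, natural killer cells and macrophages release after activation to attract other immune cells. Its close relative CCL3 and the chemokines CCL5 and XCL1 are often made by the same effector lymphocytes. Il2 encodes the growth factor that newly activated CD4 T cells release, Foxp3 marks regulatory T cells, Zbtb16 marks innate-like T cells and Egr3 is a transcription factor induced by the T-cell receptor. Ccl4 lies on chromosome 11 (chr11:83662584-83664683, plus strand, GRCm38, GENCODE M21) beside Ccl3 (chr11:83647844-83649355, minus strand).

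The Ccl4-producing cells numbered 97, 41, 55 and 100 in the 4 libraries. Their median UMIs per cell were 6148, 9917, 8589 and 11783.5, above the medians of 5036, 8259, 6681 and 9270.5 in the Ccl4-negative cells of the same libraries. Irf5 UMIs in all cells with CD3 transcripts numbered 264 and 397 in the libraries labelled knockout and 13 and 48 in those labelled wild type, which goes against the labels if the counted 3′ end lies within the deleted part, and this could not be checked here. The libraries are therefore named by their labels throughout. A group comparison below measures only the spread between libraries, which may be technical. Barcodes occurring in more than 1 library numbered 40 among these 17969 cells, and 1 Ccl4-producing cell carried such a barcode.

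**Figure D1:**
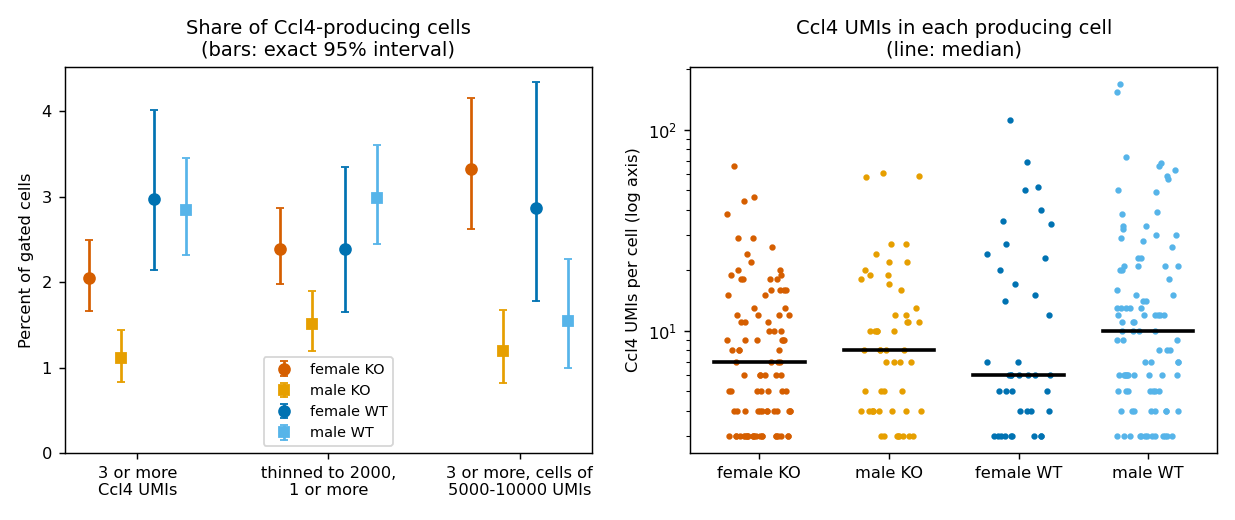
Left, percent of gated cells that were Ccl4-producing in each library under 3 definitions, with exact 95% intervals; right, Ccl4 UMIs in each of the 293 Ccl4-producing cells on a log axis, with the median of each library as a line. At 3 or more UMIs the libraries labelled wild type sit at 2.97% and 2.84%, above both labelled knockout, but among cells of 5000 to 10000 UMIs the female library labelled knockout is highest at 3.33%.

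The Ccl4-producing cells made up 2.05% (exact Clopper-Pearson 95% interval 1.67 to 2.50%), 2.97% (2.14 to 4.01%), 1.11% (0.838 to 1.44%) and 2.84% (2.32 to 3.45%) of gated cells. The intervals cover counting error only. Averaged by labelled genotype, the share was 1.58% ± 0.667 (SD, n = 2) for knockout and 2.91% ± 0.091 (SD, n = 2) for wild type, a difference of -1.33 percentage points with a two-sided exact permutation p of 0.3333, the smallest that 2 libraries against 2 can give. Cells of the libraries labelled knockout were shallower, and the definition counts raw UMIs. When every cell was thinned to 2000 UMIs and 1 Ccl4 UMI sufficed, the female libraries were level at 2.39% each and the male libraries stood at 1.52% (labelled knockout) and 2.99% (labelled wild type), a difference of -0.736 points between genotypes (exact permutation p = 0.667). Among cells of 5000 to 10000 UMIs the shares were 3.33%, 2.86%, 1.20% and 1.55%, and the difference between genotypes turned to 0.0575 points (exact permutation p = 1). Within the females the library labelled knockout was lower in the first of these 3 settings, level in the second and higher in the third, where the intervals overlapped (2.63 to 4.15% and 1.78 to 4.35%). Within the males it was lower in each. The part of depth was not tested on its own, since thinning also changed the threshold. Between sexes, the share was 1.98% ± 1.23 (SD, n = 2) in males and 2.51% ± 0.65 (SD, n = 2) in females, a difference of -0.536 points (exact permutation p = 0.667) that turned to 0.331 points without the male library labelled knockout. Among cells of 5000 to 10000 UMIs it was -1.72 points, with both male libraries below both female ones (exact permutation p = 0.3333).

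A Ccl4-producing cell held a median of 7, 6, 8 and 10 Ccl4 UMIs in the 4 libraries, and at most 66, 111, 61 and 168. Just outside the threshold, 59 gated cells had 2 Ccl4 UMIs, and just inside it 52 had 3. Together the Ccl4-producing cells carried 54.3%, 48.9%, 37.7% and 49.8% of all Ccl4 UMIs in cells with CD3 transcripts. Droplets of fewer than 200 UMIs held 8.62%, 36.2%, 9.56% and 14.7% of all UMIs in the 4 libraries. Free RNA, read from these droplets, held Ccl4 at 34.0 to 70.9 CPM (defined below). A cell of the median depth made of nothing but such RNA would hold 0.327, 0.703, 0.292 and 0.759 Ccl4 UMIs, below the threshold of 3 in each library. As a background, among gated cells without a UMI of the activation genes Irf4, Nr4a1 and Cd69, 1 of 2445 (0.0409%, exact 95% interval 0.00104 to 0.228%) reached 3 Ccl4 UMIs, at a median of 4073 UMIs per cell, against 2.01% of all gated cells at a median of 6695 UMIs. These 3 genes were chosen after their values were seen.

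High Ccl4 did not exclude high Il2. With the Il2 limit lifted, 21.8%, 18.0%, 24.7% and 17.4% of cells with at least 3 Ccl4 UMIs also had at least 3 Il2 UMIs, against 3.68%, 4.46%, 3.87% and 5.48% of cells without Ccl4. The share was higher among the Ccl4 cells in 4 of 4 libraries, and 75 cells left out by the Il2 limit alone carried both. Both limits count raw UMIs, and these 75 cells were deeper than Ccl4-negative cells, at medians of 7892, 10740, 11007.5 and 13063 UMIs. The part of depth was not tested. Of the 293 Ccl4-producing cells, 265 had no Il2 UMI.

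The proposed markers were not equally high. Rgs16 encodes a GTPase-activating protein that shortens signals from G-protein-coupled receptors, Zeb2 a zinc-finger repressor of effector lymphocytes, and Utf1 a chromatin factor known from embryonic stem cells. Because these genes helped to define the population, their values are a description. Levels are in CPM, the UMIs of a gene summed over the cells of a class and library and scaled to the usual common total. The totals of each class and library were first multiplied by edgeR's TMM factors, which ran from 0.957 to 1.05. Marker lists, free RNA, cells split by markers of another lineage and groups by Ccl4 UMIs used plain totals. Rgs16 stood at 122, 95.5, 62.9 and 64.4 CPM in Ccl4-producing cells, and at 21.6, 21.1, 18.7 and 20.4 CPM in Ccl4-negative cells. Zeb2 stood at 77.8, 107, 55.7 and 61.2 CPM against 24.1, 30.8, 15.4 and 21.8 CPM. For both genes each of the 4 Ccl4-producing values lay above each Ccl4-negative value, with ratios of the means of 4.21 and 3.28. Of the 9787 genes tested in the comparison of these classes, 31.7% likewise did not overlap. Utf1 reached 32.0, 23.9, 25.2 and 16.7 CPM against 12.2, 13.97, 12.4 and 16.4 CPM, so the male library labelled wild type showed almost no difference (0.03 on the log2 scale).

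Against Il2-producing cells the same markers separated less. Rgs16 averaged 86.2 ± 28.2 CPM (SD, n = 4) in Ccl4-producing cells and 51.6 ± 11.2 CPM (SD, n = 4) in Il2-producing cells, and the classes were level in the male library labelled knockout. Zeb2 averaged 75.5 ± 23.2 CPM and 58.7 ± 14.5 CPM, and was lower in Ccl4-producing cells in the male library labelled wild type (-0.14 on the log2 scale). Utf1 was lower on average in Ccl4-producing cells, at 24.4 ± 6.28 CPM against 34.2 ± 13.1 CPM, and was higher there only in the female library labelled knockout.

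**Figure D2:**
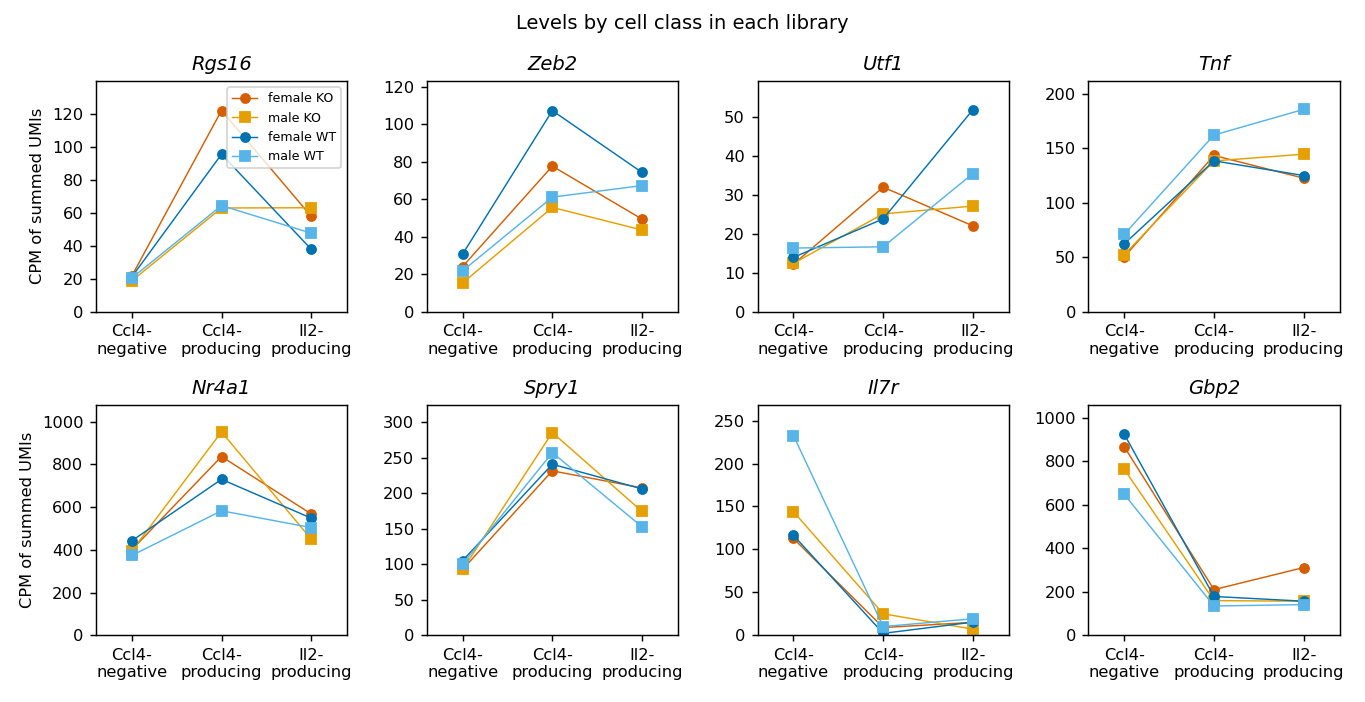
CPM of 8 genes (y axis, from 0) in Ccl4-negative, Ccl4-producing and Il2-producing cells (x axis), with 1 line per library. Rgs16, Nr4a1 and Spry1 peak in Ccl4-producing cells in at least 3 libraries, Tnf is at similar levels in both producing classes, and Il7r and Gbp2 are low in both.

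The gated cells carried T-cell markers. The 8 T-cell markers Cd3e, Cd3d, Cd3g, Cd4, Trac, Trbc2, Cd5 and Cd28 summed to 2542 to 2875 CPM in Ccl4-producing cells and 2532 to 2908 CPM in Ccl4-negative cells. The rule itself asked for a UMI of Cd3e, Cd3d or Cd3g in every cell of both classes, so those 3 genes are no test of the gate. Cd4 had a UMI in 27.6% of Ccl4-producing cells and 28.3% of Ccl4-negative cells. Cd8a was at 0 in Ccl4-producing cells, and Cd8b1 had 15 UMIs in 12 cells. The natural killer list had 5 of 9 markers detected at a sum of 0 to 6.25 CPM, with Ncr1 and Gzma at 0. Of the γδ T-cell list only Trdc was detected, with 42 UMIs in 6 cells. The list stood at 29.6, 21.4, 1.88 and 10.2 CPM in the 4 libraries, against 14.5, 17.1, 5.37 and 4.98 CPM in Ccl4-negative cells. A UMI of the list was held by 2.05% of Ccl4-producing and 2.15% of Ccl4-negative cells. Of 8 B-cell markers 3 were detected, with Cd79a, Ms4a1, Ebf1 and Pax5 at 0 (list 24.9 to 35.7 CPM), and of 12 myeloid markers 4 were detected, with C1qa, C1qb, Itgam and Adgre1 at 0 (list 20.7 to 40.7 CPM). Erythroid markers summed to 1.56 to 19.1 CPM and innate-like T-cell markers, with Zbtb16 kept at 0 by the rule, to 3.76 to 52.9 CPM against 8.42 to 19.9 CPM in Ccl4-negative cells. The regulatory T-cell list, whose members are shared with activated cells, summed to 426 to 563 CPM against 320 to 405 CPM, with Foxp3 kept at 0 by the rule. In all, 30 of 293 cells (10, 5, 4 and 11) carried a UMI of a CD8, natural killer or γδ T-cell marker or of a defining B-cell, myeloid or erythroid marker such as Cd79a, Lyz2 or Car1 (markers of another lineage below), a share of 7.27 to 12.2% per library against 8.08 to 11.6% of Ccl4-negative cells.

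Upstream sequences are shown for Ccl3 and Xcl1, the chemokine genes other than Ccl4 with the largest summed rises (UMIs in 28 and 13 of 293 cells), and for the proposed marker Rgs16, as the 250 bases before the RefSeq start (GRCm38.p6, 5′ to 3′ in the direction of the gene). Capitals mark the core letters bound by NFAT factors, GGAAA or its reverse complement.
Ccl3 (chr11:83649379-83649628, minus strand): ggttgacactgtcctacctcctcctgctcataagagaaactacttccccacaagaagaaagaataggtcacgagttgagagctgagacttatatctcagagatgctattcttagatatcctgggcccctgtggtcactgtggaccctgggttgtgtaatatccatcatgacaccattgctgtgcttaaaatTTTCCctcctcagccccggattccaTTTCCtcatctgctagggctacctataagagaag
Xcl1 (chr1:164935523-164935772, minus strand): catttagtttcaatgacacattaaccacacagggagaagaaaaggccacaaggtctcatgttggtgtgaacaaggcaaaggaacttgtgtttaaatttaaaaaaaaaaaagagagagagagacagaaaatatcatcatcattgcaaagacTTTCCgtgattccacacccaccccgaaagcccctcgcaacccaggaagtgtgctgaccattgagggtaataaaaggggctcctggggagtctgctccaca
Rgs16 (chr1:153740103-153740352, plus strand): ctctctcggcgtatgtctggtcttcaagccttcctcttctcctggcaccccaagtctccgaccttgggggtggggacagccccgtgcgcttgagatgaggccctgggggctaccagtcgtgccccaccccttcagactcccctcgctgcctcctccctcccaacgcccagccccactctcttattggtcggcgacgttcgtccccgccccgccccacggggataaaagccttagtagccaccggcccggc
The core occurred 2 times upstream of Ccl3, 1 time upstream of Xcl1 and 0 times upstream of Rgs16, on either strand. It also occurred in 55.7% of 32536 such windows of the mouse genome, so its presence is common. None of the 3 windows held the AP-1 letters TGANTCA (6.73% of windows), the CRE letters TGACGTCA (1.56%), the NF-kB motif (0.360%), the NR4A letters AAAGGTCA (1.35%) or the TATA letters TATAAA (12.3%).

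The Ccl4-producing cells differed broadly from the Ccl4-negative cells. Of 9787 genes tested, 2669 were called (27.3%) by edgeR's quasi-likelihood test with the library as a block at a Benjamini-Hochberg adjusted p under 0.05, with 1258 higher (12.9%) and 1411 lower (14.4%). Among the fixed lists, 30 of 41 genes of early T-cell receptor signalling, 12 of 16 cytokine and TNF-family genes and 28 of 30 ribosome biogenesis genes were higher. Of naive T-cell genes 24 of 30 were lower, and of interferon-stimulated genes 33 of 35. The log2 fold changes below are Ccl4-producing over Ccl4-negative cells, followed by a standard error. With Ccl4-negative cells matched on UMIs per cell the called genes fell to 1179 of 8058 (14.6%), and with Ccl4-negative cells limited to those with at least 2 Irf4 UMIs, an activation gene, to 687 of 9118 (7.53%). Most of these calls were also made in the main comparison, 1134 and 644 of them.

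Of 41 genes induced by the T-cell receptor, 30 were higher, 3 lower and 8 not called, with a median log2 fold change of 0.57 against -0.05 over all genes tested. Beside Ccl4-negative cells with Irf4, 24 of 41 were higher and 2 lower, where 3.59% of all genes were higher. Nr4a1, an orphan nuclear receptor that follows receptor signal strength, stood at 837, 730, 952 and 583 CPM in Ccl4-producing cells. The Ccl4-negative cells had 400, 443, 395 and 374 CPM, below each of those values, and 31.7% of all genes tested likewise did not overlap. The log2 fold change was 0.93 ± 0.06 (SE, adjusted p = 1.67e-26), and 0.66 beside cells with Irf4 (adjusted p = 5.26e-11). Nr4a1 was also widely held, with a UMI in 90.8% of Ccl4-producing cells and 54.1% of Ccl4-negative cells, or 64.2% and 33.4% with every cell thinned to 2000 UMIs. Nfkb1, a subunit of NF-kB, changed by 0.62 ± 0.04 (adjusted p = 1.74e-24), and Cd69, an early activation antigen, by 0.43 ± 0.04 (adjusted p = 1.24e-17). Irf4 changed by 0.30 ± 0.04 (adjusted p = 1.67e-08).

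Of 24 genes of inhibitory receptors and anergy tested, 10 were higher and 4 lower (median 0.13). Among the 4, Socs1 fell by 0.93 (adjusted p = 9.48e-16) and Dgka by 2.41 (adjusted p = 1.57e-15). Outside that list, Spry1, an inhibitor of the Ras and ERK cascade, was at 232, 241, 286 and 257 CPM against 93.0, 105, 92.8 and 101 CPM. Its log2 fold change was 1.39 ± 0.08 (adjusted p = 9.96e-28), and 1.06 beside cells with Irf4. Ubash3b, a phosphatase that dampens receptor signals, rose by 1.45 ± 0.24 (adjusted p = 4.7e-07). Pdcd1, which encodes the inhibitory receptor PD-1, rose by 1.35 ± 0.28 (adjusted p = 5.39e-05) from a low level of 7.74 to 20.2 CPM, and was not called with cells thinned to 2000 UMIs. Nrn1, neuritin, averaged 50.8 ± 21.8 CPM (SD, n = 4) against 13.2 ± 1.88, yet only 7, 6, 3 and 6 cells held all of its UMIs. Hivep3, a zinc-finger factor at 511 ± 75.6 CPM (SD, n = 4) against a mean of 197 CPM, rose by 1.34 ± 0.06 (adjusted p = 2.16e-33). Eea1, a tether of early endosomes, rose by 1.48 ± 0.07 (adjusted p = 4.24e-31) and the amino acid transporter Slc7a3 by 1.66 ± 0.23 (adjusted p = 4.81e-09). Further strong rises were Plek (2.26 ± 0.32), which encodes the kinase substrate pleckstrin, Spin4 (1.65 ± 0.29) and the kinesin gene Kif15 (1.51 ± 0.31), the last of which was not called without the female library labelled knockout.

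Of 4 chemokine genes tested, Ccl3, Xcl1 and Ccl5 were higher and Cxcl10 was lower, and the UMIs of the 3 that rose came from few cells. Ccl3 stood at 64.0, 76.4, 3.59 and 72.3 CPM in Ccl4-producing cells and at 0.521, 0.267, 0.0573 and 0.129 CPM in Ccl4-negative cells. Its log2 fold change was 7.71 ± 0.48 (adjusted p = 3.93e-25). Its UMIs lay in 12, 3, 1 and 12 cells, and the 3 richest cells of each library held 27 of 42, 32 of 32, 2 of 2 and 73 of 91. Xcl1, which encodes the chemokine lymphotactin, rose by 4.40 ± 0.39 (adjusted p = 1.33e-16) but came from 8, 2, 0 and 3 cells. Ccl5, another CC chemokine gene, came from 8, 2, 1 and 7 cells and its classes overlapped (log2 fold change 1.65 ± 0.20, adjusted p = 3.08e-11, not called by DESeq2). In the 30 cells with a marker of another lineage, Ccl5 stood at 355.5 CPM, against 50.02 CPM in the other 263, and Ccl3 at 155 against 45.3 CPM. With such cells left out of both classes, the log2 fold change of Ccl5 was 2.399 (adjusted p = 2.56e-29), and Ccl3 did not pass the expression filter. Cxcl10, an interferon-induced chemokine, fell by 2.27 ± 0.21 (adjusted p = 7.05e-16). Of 8 chemokine receptors tested, Ccr7, Ccr4 and Cxcr4 were lower, with Ccr4 called in 8 of 15 alternative settings and Cxcr4 in 10 of 13.

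Of 16 cytokine and TNF-family genes tested, 12 were higher and 2 lower (median 1.07). Tnf, named after its values were seen, was at 143, 138, 138 and 162 CPM against 50.4, 62.3, 52.5 and 71.0 CPM, with no overlap. Its log2 fold change was 1.31 ± 0.10 (adjusted p = 3.72e-20), and 52.2% of Ccl4-producing cells held a Tnf UMI, against 22.1% of Ccl4-negative cells (24.6% and 8.28% when thinned). Tnfsf11, which encodes RANK ligand, rose by 1.01 ± 0.07 (adjusted p = 1.2e-22), Tgfb1 by 0.50 ± 0.09 (adjusted p = 5.85e-06) and Tnfsf8, CD30 ligand, by 0.33 ± 0.07 (adjusted p = 5.46e-05). The call of Tnfsf8 was lost without the library block, when thinned, and without the male library labelled wild type (0.16). Ltb, lymphotoxin beta, fell by 0.39 ± 0.06 (adjusted p = 1.41e-07), with a change of 0.06 and no call beside cells with Irf4. Of 15 cytotoxic effector genes tested, 6 were higher and none lower, among them Fasl, which encodes Fas ligand (1.14 ± 0.16, adjusted p = 1.79e-08), and Slamf7 (1.22 ± 0.19, adjusted p = 1.18e-07).

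Of 30 ribosome biogenesis genes tested, 28 were higher and none lower, at a median of 0.45, led in level by Ncl (nucleolin, 5382 ± 198 against 3954 ± 124 CPM) and Npm1 (nucleophosmin, 0.36 ± 0.03). Beside cells matched on UMIs, where 6.99% of all genes were higher and 7.64% lower, 17 of 30 were higher, and beside cells with Irf4 13 of 30. Of 22 genes of glycolysis and nutrient transport, 11 were higher and 4 lower, with Slc1a5, a glutamine transporter, at 0.73 ± 0.07 (adjusted p = 8.45e-16). Of 22 costimulatory and cytokine receptors, 9 were higher and 5 lower. Il2ra, the high-affinity chain of the IL-2 receptor, rose by 0.59 ± 0.06 (adjusted p = 4.1e-14), Slamf1 by 0.95 ± 0.08 (adjusted p = 7.17e-19) and Cd82 by 0.57 ± 0.07 (adjusted p = 6.19e-10).

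Genes of naive cells and of the interferon response were among those that fell. Of 30 naive and quiescence genes, 24 were lower and 1 higher, at a median of -1.21. Il7r, the IL-7 receptor chain, stood at 9.15, 2.39, 25.2 and 10.3 CPM against 113, 116, 144 and 232 CPM, and fell by 3.83 ± 0.17 (adjusted p = 3.86e-34), a value that ranged from -7.16 when thinned to -1.32 beside cells with Irf4. S1pr1, which guides exit from lymphoid tissue, fell by 3.32 ± 0.23 (adjusted p = 6.14e-22), without a call beside cells with Irf4. Ms4a4b fell by 1.36 ± 0.06 (-0.68 beside cells with Irf4), and Ccr7, which guides cells to lymph nodes, by 0.80 ± 0.07. Of 35 interferon-stimulated genes, 33 were lower and none higher, at a median of -2.15. Gbp2, a guanylate-binding protein, averaged 171 ± 31.8 CPM against 801 ± 121 CPM. Samhd1 fell by 2.71 ± 0.08 (adjusted p = 5.85e-46), with -3.94 when thinned and -1.28 beside cells with Irf4. Ifit1, Ifit3, Ifit1bl1 and Oasl2, antiviral genes, fell by 3.44 to 4.43. Beside cells with Irf4, 19 of 32 interferon-stimulated genes were lower and 13 of 28 naive genes, where 3.95% of all genes were lower, and Ifit3, Ifit1bl1 and Oasl2 were among those no longer called.

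**Figure D3:**
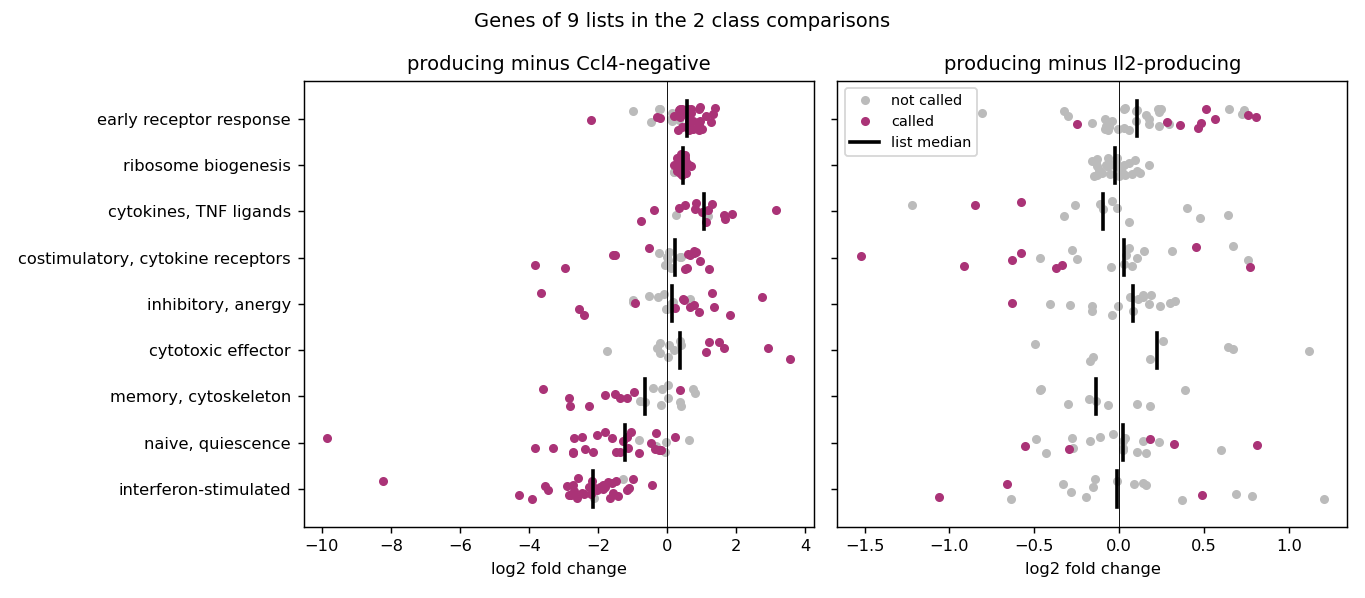
Log2 fold changes (x axis) of the tested genes of 9 lists (rows), for Ccl4-producing minus Ccl4-negative cells on the left and minus Il2-producing cells on the right; purple points were called, grey points were not, and black bars are list medians. On the left 28 of 30 ribosome biogenesis genes are called higher and 33 of 35 interferon-stimulated genes lower, while on the right none of 30 and 2 of 17 are.

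Few relatives of the markers could be tested. Of 7 other genes of the Rgs family, none was higher and Rgs10, Rgs1 and Rgs2 were lower. Over all genes tested 12.9% were higher and 14.4% lower, so none higher among 7 is near the common share. Rgs1 fell by 0.85 ± 0.16 (adjusted p = 1.21e-05), with a change of 0.18 and no call beside cells with Irf4. Rgs2 was called in 8 of 15 alternative settings, and Rgs10 in all but the one without the male library labelled wild type. Of the pluripotency-associated genes only Pou5f1 could be tested, and at 2.32 CPM against 1.80 CPM it did not differ detectably (adjusted p = 0.7). Of 21 memory and cytoskeleton genes, 9 were lower and 1 higher. Tmsb10, an actin-binding protein, fell by 0.97 ± 0.04 (adjusted p = 3.18e-34). Of 10 genes of the type 1 program, 2, among them Ifng, were higher and 4 were lower, among them Stat4 (-1.02 ± 0.14), with a change of -0.29 and no call beside cells with Irf4. The Ifng UMIs of Ccl4-producing cells lay in 4 and 2 cells of the female libraries, labelled knockout and wild type, and the male libraries had 0. Of 12 tested genes of a list of the Irf and Sp100 families, which also holds Tnpo3, a nuclear import receptor gene of neither family, Irf4 and Tnpo3 were higher and 7 lower. Irf1 differed by -1.43 ± 0.10 (adjusted p = 3.68e-23), and Irf4 turned to -0.07 beside cells chosen for Irf4.

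The levels of some of these genes were also set against the number of Ccl4 UMIs. Gated cells were split into those with 0, 1 to 2, 3 to 5, 6 to 14, and 15 or more Ccl4 UMIs (13942, 331, 108, 103 and 82 cells), whose median depths were 6615, 8487, 8690.5, 9102 and 9001 UMIs. Tnf averaged 58.5 ± 7.74, 82.9 ± 21.1, 85.5 ± 19.7, 128 ± 45.0 and 247 ± 26.6 CPM (SD, n = 4) over these levels, with the 4 libraries of the top level above all others. Rgs16 averaged 20.3, 42.9, 51.2, 98.1 and 125 CPM, Lta, the gene of lymphotoxin alpha, 34.4, 52.6, 37.7, 89.3 and 123 CPM, and Myc 241, 320, 391, 468 and 577 CPM. Nr4a2 averaged 85.6, 131, 126, 210 and 311 CPM. Utf1 averaged 13.6, 21.4, 15.7, 25.9 and 32.7 CPM, with SDs of up to 23.7 CPM within a level. The means of Lta, Nr4a2 and Utf1 did not rise at every step, being lower at 3 to 5 than at 1 to 2 UMIs. Il7r fell early, from 149.6 CPM at 0 to 49.6 at 1 to 2 UMIs and 7.76 at 3 to 5 UMIs. The levels share their libraries and the genes were named after their values were seen, so these values are a description. Cells with 1 or 2 Ccl4 UMIs, which neither class of the comparison included, lay between the classes for Tnf, Rgs16, Myc and Il7r.

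**Figure D4:**
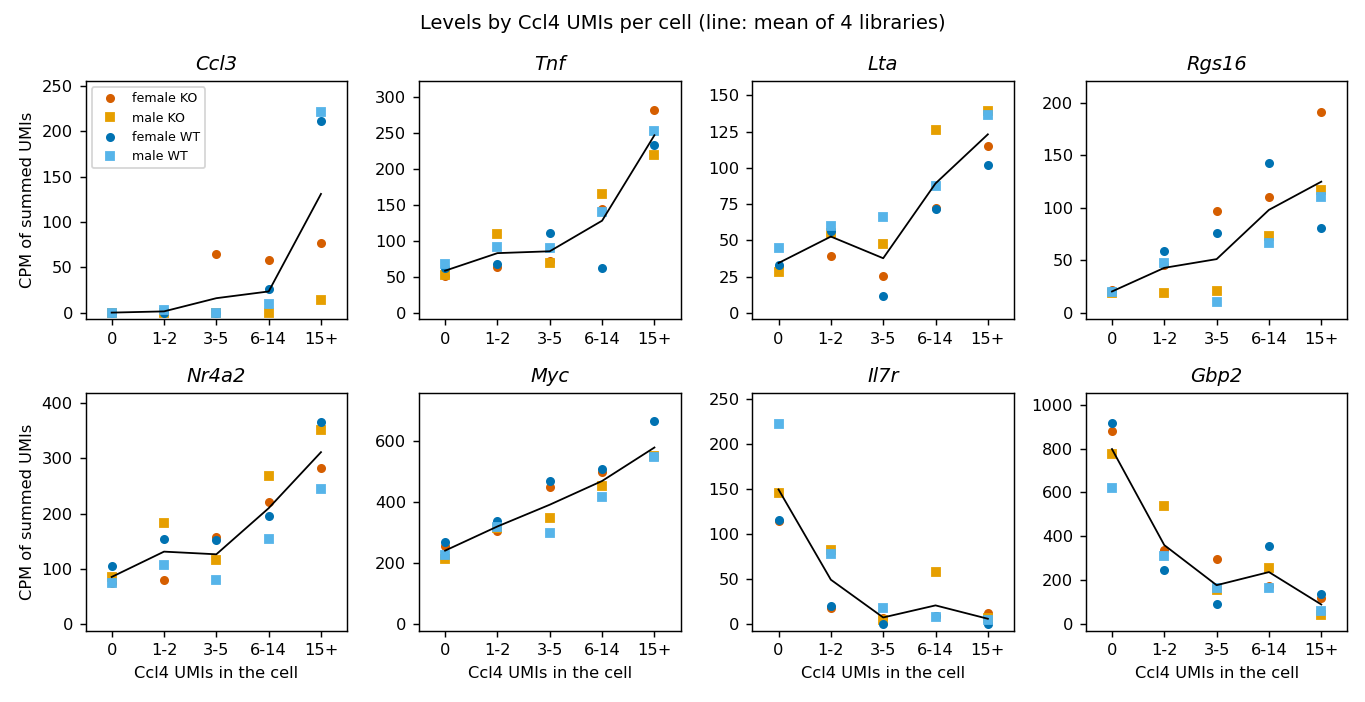
CPM of 8 genes (y axis) in gated cells grouped by their Ccl4 UMIs (x axis), with 1 point per library and a line through the mean of 4 libraries. The mean of Tnf rises from 58.5 to 247 CPM and that of Myc from 241 to 577 CPM, while that of Il7r falls from 149.6 to 6.31 CPM and Ccl3 differs widely between libraries at 15 or more UMIs.

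Set against Il2-producing cells, which also responded to stimulation, far fewer genes were called. The comparison class held 618 cells here and 13942 in the comparison above, so the 2 counts of called genes are not on one scale. Of 6320 genes tested, 120 were called (1.9%), 67 higher (1.06%) and 53 lower (0.839%). Of 21 costimulatory and cytokine receptors tested, 6 were lower, Tnfrsf9 and Cd27 were higher, and 13 were not called. None of 30 ribosome biogenesis genes was called (median -0.03), and of 13 cytokine and TNF-family genes only Tnfsf8 and Cd40lg were, both lower. Of the 15 cytotoxic effector genes tested above only 8 could be tested here. None was called, at a median of 0.22 and a range of -0.49 to 1.12. Tnf had a UMI in 53.4% of Il2-producing and 52.2% of Ccl4-producing cells. The Il2-producing cells were deeper, at medians of 7132, 12014, 9873 and 13289.5 UMIs. With Il2-producing cells matched on UMIs, in a single draw, 94 of 5121 genes were called (1.84%), and DESeq2 called 30.

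Among the genes lower in Ccl4-producing cells, Tnfrsf4, the costimulatory receptor OX40, stood at 520, 315, 482 and 316 CPM against 827, 665, 974.6 and 616 CPM. The classes did not overlap, as for 5.19% of all genes tested, and the log2 fold change was -0.91 ± 0.06 (adjusted p = 9.88e-10). Tnfsf8 was at 267, 427, 336 and 393 CPM against 554, 696, 737 and 602 CPM, also without overlap (-0.85 ± 0.07, adjusted p = 1.02e-07). Slamf6, a receptor of the SLAM family, fell by 1.52 ± 0.19 (adjusted p = 3.84e-05), from 69.1 ± 18.7 to 24.97 ± 8.48 CPM. Cd200, a ligand that restrains myeloid cells, fell by 0.63 ± 0.08 (adjusted p = 3.84e-05), Tnfrsf18 (GITR) by 0.37 ± 0.08 (adjusted p = 0.0152) and Cd40lg by 0.58 ± 0.14 (adjusted p = 0.0202). Cd200 was not called with matching or thinning, and Tnfrsf18 and Cd40lg were called in 9 and 8 of 14 alternative settings. Tbc1d4, which controls traffic of glucose transporters, fell by 2.24 ± 0.36 (adjusted p = 0.000684), and Gapdh, Pkm and Hk2 were the 3 of 20 glycolysis and transport genes called, all lower. They were called in 6, 8 and 9 of 14 alternative settings, and beside matched cells Gapdh and Pkm were not. The inhibitor of E proteins Id3 fell by 0.93 ± 0.13 (adjusted p = 0.000146) and the receptor adaptor Trat1 by 0.94 ± 0.15 (adjusted p = 0.000666), the latter not called when thinned (adjusted p = 0.369). Mfhas1, Plscr1, Slfn8, Tspan13, Akna and Nek7 were lower by 0.87 to 1.27. With Il2-producing cells matched on UMIs, Mfhas1, Plscr1, Tspan13 (-0.10) and Nek7 (-0.15) were not called. Nek7 was called in 4 of 13 alternative settings and Slfn8 in 9 of 13.

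The 3 NR4A nuclear receptor genes were called higher in Ccl4-producing cells. Nr4a2 stood at 204, 234, 225 and 162 CPM against 115, 122, 114 and 109 CPM, without overlap (0.81 ± 0.10, adjusted p = 2.25e-05). Nr4a1 differed by 0.57 ± 0.08 (adjusted p = 0.000258) and Nr4a3 by 0.48 ± 0.07 (adjusted p = 0.000308). Of 39 early response genes tested, 8 were higher and 1, Nfkbia, lower. Beside Il2-producing cells matched on UMIs 3 of 38 were higher and 5 lower, where 0.723% of all genes were higher and 1.11% lower, with Nr4a2 (0.48, adjusted p = 0.00864) still called higher and Nr4a1 (0.22, adjusted p = 0.0949) and Nr4a3 (0.10, adjusted p = 0.741) not. With cells thinned to 2000 UMIs neither Nr4a2 (adjusted p = 0.0815) nor Nr4a3 was called, and Nr4a3 was not called without the library block. The transcription factor genes Myb (1.20 ± 0.21, adjusted p = 0.00125), Sox4 (0.99 ± 0.18, adjusted p = 0.00172) and Klf7 (0.81 ± 0.21, adjusted p = 0.0412) were higher, though Klf7 was called in only 6 of 13 alternative settings and Myb not by DESeq2 (adjusted p = 0.887). Bend4 was at 44.2, 50.1, 39.5 and 33.4 CPM against 8.37, 15.4, 15.5 and 13.3 CPM (1.61 ± 0.23, adjusted p = 0.000157). Btg2, an antiproliferative gene, differed by 0.81 ± 0.12 (adjusted p = 0.000157), Btg1 by 0.32 ± 0.06 (adjusted p = 0.00172) and the chromatin organizer Satb1 by 0.18 ± 0.04 (adjusted p = 0.0129). Beside matched cells neither Btg1 (0.13) nor Satb1 (-0.0048) was called, and Satb1 was called in 8 of 14 alternative settings. When thinned, Btg2 was not called (adjusted p = 0.443). Slc7a3, Gimap7 and Swap70 were higher by 0.86 to 1.15, and Plek by 1.36. Gimap7 was called in 7, Slc7a3 in 10 and Swap70 in 12 of 13 alternative settings, and Plek in 6 of 10. Ifitm2 had the largest difference (2.33 ± 0.30, adjusted p = 3.84e-05), but 42 of its 55 UMIs in the male library labelled wild type came from 1 cell, and Lilrb4a (1.75 ± 0.35), an inhibitory receptor, overlapped between the classes and was called in 4 of 7 alternative settings.

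The study compared the genotypes, and within Ccl4-producing cells few genes separated the labelled genotypes. Of 5365 genes tested, 16 were called (0.298%), 6 higher (0.112%) and 10 lower (0.186%) under the knockout label, with sex as a term. Irf5 itself had 12, 1, 2 and 0 UMIs in these cells, too few to test. Sp110, which encodes a nuclear body protein of the Sp100 family, had 0, 40, 0 and 102 UMIs and was at least 34.2-fold lower in the libraries labelled knockout, with 3 UMIs over the group as the floor. Its relative Sp140 had 0, 5, 0 and 10 UMIs, below the filter for testing. The same split of Sp110 stood in the Ccl4-negative cells, at 0.361, 102, 0.516 and 84.6 CPM.

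Among the other genes, Tnfrsf4 was at 520 and 482 CPM in the libraries labelled knockout and 315 and 316 CPM in those labelled wild type (0.66 ± 0.14, adjusted p = 0.0012). Nr4a1 (0.47 ± 0.12, adjusted p = 0.0489), the stress-induced factor gene Atf3 (0.70 ± 0.18, adjusted p = 0.0489), Itm2a (0.65 ± 0.14, adjusted p = 0.00245), Ncoa7 (1.55 ± 0.36, adjusted p = 0.0121) and the interferon-induced Ifi27l2a (0.94 ± 0.24, adjusted p = 0.0374) were also higher. Lower were Cks2, a cofactor of cyclin-dependent kinases (7.62, 35.8, 16.2 and 68.3 CPM, -2.12 ± 0.42, adjusted p = 0.000798), and Apobec3, an antiviral cytidine deaminase (-1.57 ± 0.40, adjusted p = 0.0379). In the male library labelled wild type, single cells held 33 of 86 Cks2 UMIs and 40 of 80 Apobec3 UMIs. Arf5 (-1.0002 ± 0.20, adjusted p = 0.0012), Usp1 (-0.79 ± 0.19, adjusted p = 0.0204) and Snhg8 (-0.66 ± 0.17, adjusted p = 0.0489) were lower too. Ccl3 was called lower (-1.32 ± 0.30, adjusted p = 0.00901), but in only 5 of 13 alternative settings. The male library labelled knockout held 2 Ccl3 UMIs in 1 cell, and without that library and the sex term the difference was -0.22. Without the male library labelled wild type and the sex term it was -1.09. The call was lost without the sex term alone, without cells carrying markers of another lineage, when thinned, and at both other Ccl4 thresholds. Gm42418 (-0.54 ± 0.13, adjusted p = 0.0287) stood at 24975 CPM in wild-type-labelled female cells and at 11116 to 12290 CPM in the other 3. Its difference turned to 0.02 without that library and the sex term. Lars2 (-0.73 ± 0.13), which encodes a mitochondrial leucyl-tRNA synthetase, had the same high library, at 857 CPM against 359 to 446 CPM.

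**Figure D5:**
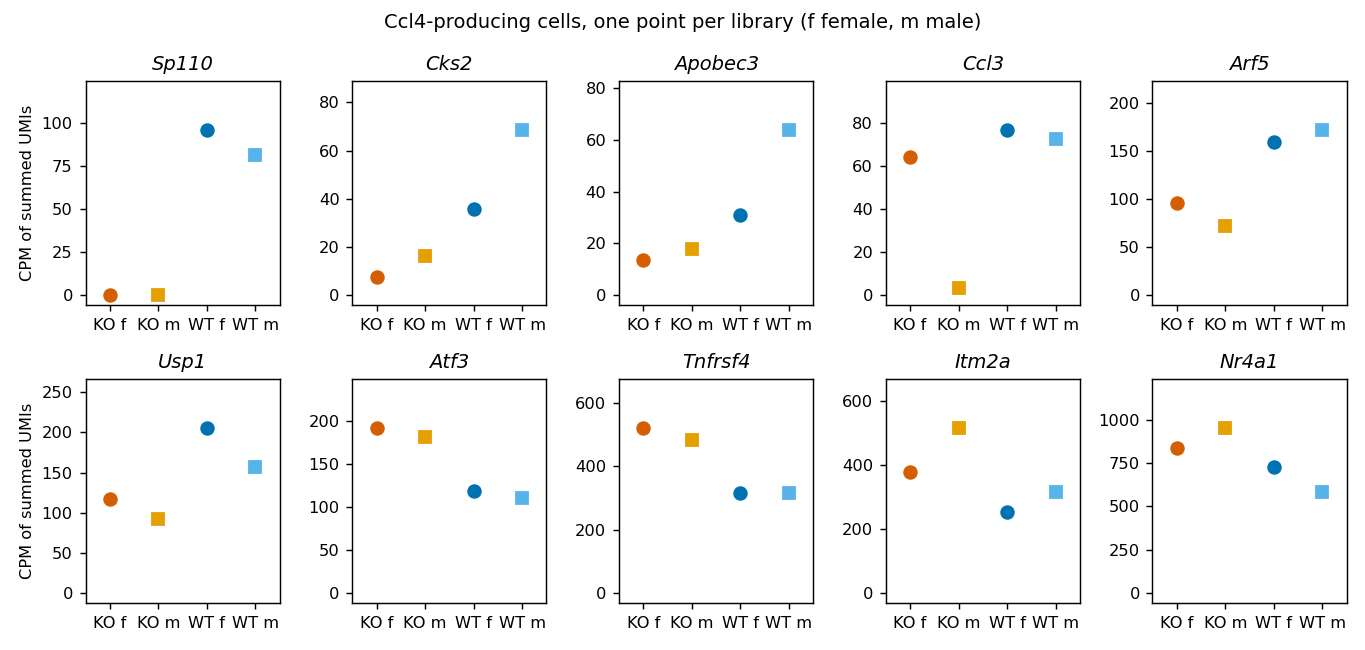
CPM (y axis, from 0) of 10 genes called between genotypes in Ccl4-producing cells, with 1 point per library (x axis, f for female and m for male). Sp110 is at 0 in both libraries labelled knockout, Tnfrsf4 is at 482 and 520 CPM there against 315 and 316 CPM, and Ccl3 is low only in the male library labelled knockout.

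Most of these calls depended on the settings. Without a sex term, with cells thinned to 2000 UMIs, or with a Ccl4 threshold of 2 UMIs, 1 gene was called. DESeq2 called 0, with 9 genes at an unadjusted p under 0.05 (257 for edgeR). It also missed Sp110, and between sexes Xist and the Y-linked genes Ddx3y, Eif2s3y and Kdm5d. The 0 of DESeq2 therefore cannot show which calls depend on the settings. The fits that left out a library also had no sex term. They set 1 library against 2, so the part of a single library was not tested on its own. Sp110 was called in 11 of 12 alternatives, Lars2 in 8 of 13, Arf5 in 7 of 13 and Cks2 in 7 of 12. Tnfrsf4 and Itm2a were called in 6 of 13, Nr4a1 and Ifi27l2a in 3, Atf3 in 2 and Snhg8 in 0.

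Between sexes, 13 of 5365 genes were called (0.242%) in Ccl4-producing cells, 3 higher in males (0.0559%) and 10 lower (0.186%). The Y-linked genes Ddx3y, Eif2s3y and Kdm5d had no UMI in female libraries and were at least 37.1-fold, 24.3-fold and 9.47-fold higher in males, and Xist, which silences an X chromosome, was at least 441-fold lower. Tsix, its antisense partner, shares its locus, and reads of the pair cannot be told apart without strand. Of the other genes, Irf8 (-0.68 ± 0.16, adjusted p = 0.00892) and the receptor-induced Tagap (-0.64 ± 0.15, adjusted p = 0.0125) were lower in males, and so were Lilrb4a (-2.10 ± 0.52) and B930036N10Rik (-1.89 ± 0.36). Gm47283 was lower too (-1.20 ± 0.17), at 366, 165, 102 and 110 CPM in the 4 libraries, although GENCODE M21 places it on chromosome Y. Irf8 and Tagap were called in 4 of 13 alternative settings and Lilrb4a in 4 of 12, against 10 of 13 for Gm47283 and 9 of 12 for B930036N10Rik. Single cells held 21 of 36 and 19 of 33 B930036N10Rik UMIs in the female libraries labelled knockout and wild type. The Ccl4-producing cells of the male library labelled knockout had 0 Xcl1 UMIs.

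Whether the genotype effect in Ccl4-producing cells differed from that in Ccl4-negative cells was tested directly. Of 10326 genes tested, 19 were called (0.184%), 3 with a more positive (0.0291%) and 16 with a more negative effect (0.155%) in Ccl4-producing cells. Without the male library labelled wild type 1 gene was called, and without cells carrying markers of another lineage likewise 1.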

How the data were processed

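Droplet libraries of sorted splenic T cells were analysed from the raw UMI counts per gene and barcode that the authors deposited as unfiltered matrices. Reads were processed with Cell Ranger 6.0.2 and the mm10 build, per the submitters' processing notes, whereas the matrices name Cell Ranger 4, per the file headers. Of 32285 gene IDs in the files, 32158 (99.6%) matched GENCODE M21. The 4 libraries held 28841161 to 55850754 UMIs.

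Barcodes with at least 2000 UMIs, 500 genes, at most 10% mitochondrial UMIs and at least 1 CD3 UMI were kept. Doublets were scored with scrublet (scanpy 1.11.5) at 0.8% per 1000 cells and removed only in an alternative, since its automatic threshold marked too few cells. UMI counts were summed per library and class and tested with edgeR 4.0.16 in R 4.3.3 (TMM scaling, filterByExpr, quasi-likelihood test, Benjamini-Hochberg adjustment, called under 0.05). The library was a block between classes, and sex or genotype a term otherwise. Fits between genotypes or sexes that left out a library had no such term. The gate genes, Rgs16, Zeb2, Utf1 and mitochondrial genes were left out of the class fits. Alternatives were DESeq2 1.42.0, other scaling, no expression filter, other Ccl4 thresholds, thinning to 2000 UMIs, comparison cells matched on UMIs or with at least 2 Irf4 UMIs, and leaving out each library, doublets or cells with markers of another lineage.

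Named genes were the 12 largest changes each way among called genes of at least 20 CPM with 1 direction in every library or stratum, and the most abundant called members of each list. The members and lists were chosen with earlier results of these data known. On simulated data, 68% of genes changed by 1 on the log2 scale were recovered among 9669 genes against Ccl4-negative cells, 55% among 5179 genes between genotypes, and 26% among 10180 genes for the interaction, where 7.14% of calls were false. Some items are not reported here.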

Additional observations from a re-analysis of the deposited data

Results flagged for a closer look

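The genotype effect in Ccl4-producing cells differed from that in Ccl4-negative cells by the interaction term of edgeR's test for 11 named genes. The differences are log2 values, libraries labelled knockout minus wild type, in Ccl4-producing minus Ccl4-negative cells. More positive effects were found for the kinase gene Map2k3 (0.51, adjusted p = 0.0297), Nr4a1 (0.50, adjusted p = 0.000143) and Itm2a (0.48, adjusted p = 0.0222). More negative effects were found for Igkc, an immunoglobulin chain (-4.98, adjusted p = 0.00427), Stmn1, a microtubule regulator (-2.54, adjusted p = 0.00448), Cks2 (-2.26, adjusted p = 4e-05), Apobec3 (-1.69, adjusted p = 0.00332), Ikzf2, which encodes Helios (-1.46, adjusted p = 0.00493), and the chromatin gene Hmgb2 (-0.81, adjusted p = 0.0031). Fth1, the ferritin heavy chain (-0.52, adjusted p = 0.000143), and Tnfsf8 (-0.52, adjusted p = 0.00768) had smaller negative differences. In the male library labelled wild type a single Ccl4-producing cell held 72 of 80 Stmn1 UMIs, a single cell 104 of 234 Hmgb2 UMIs, and a single cell 268 of 970 Fth1 UMIs. Without that library none of the 11 genes was called, and without cells carrying markers of another lineage only Nr4a1 was. Neither DESeq2 nor the fit with thinned cells called any of the 11. Igkc stood at 440 CPM in the Ccl4-negative cells of the female library labelled knockout and at 2.04 to 11.8 CPM in those of the other 3. In the Ccl4-producing cells of the male library labelled wild type, 1 cell held all 5 of its UMIs. Without cells carrying markers of another lineage the differences turned to 8.16 for Igkc and 0.413 for Stmn1.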

How the results depend on the processing

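Each genotype has 1 female and 1 male library, so the genotype fit with sex as a term is paired by sex. Between classes of the same library, the fit with no replicate block called 36 genes against Il2-producing cells and 2654 against Ccl4-negative cells. Against Ccl4-negative cells, 1179 genes were called with cells matched on UMIs, 687 with Irf4, 1622 when thinned, and 1949 to 2322 without 1 library. Against Il2-producing cells, DESeq2 called 30, no filter 249, thinning 40, and leaving out a library 76 to 104. Higher calls were 55.8% of the 120, but 39.4% with matching, 42.6% with no filter and 42.5% when thinned. Between genotypes, a Ccl4 threshold of 5 gave 10 and of 2 gave 1, DESeq2 0, no cells with other markers 6, no sex term 1, thinning 1, and leaving out a library 10 to 93. Between sexes, a threshold of 2 gave 5, DESeq2 0 (8 at an unadjusted p under 0.05), no filter 20, no genotype term 7, thinning 5, and leaving out a library 15 to 55. For the interaction, DESeq2 gave 0 (85 at an unadjusted p under 0.05), no cells with other markers 1, thinning 0 (308 at an unadjusted p under 0.05), and leaving out a library 1 to 29. The share difference between genotypes was -0.736 points when thinned and 0.0575 at 5000 to 10000 UMIs, and -1.80 to -0.855 without 1 library. That between sexes was -1.72 at 5000 to 10000 UMIs, and -1.40 to 0.331 without 1 library.

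Reversed log2 differences were, against Ccl4-negative cells, Ltb 0.0377 and Ldha -0.0116 with matching, and Ltb 0.0589, Ldha -0.0219, Rgs1 0.181 and Irf4 -0.0705 with Irf4. Against Il2-producing cells, matching gave Rgs19 -0.00868, Satb1 -0.00476, Tmsb10 0.0447 and Irf4 -0.0258. Rgs10 was -0.0890 at a threshold of 5, -0.0245 with no replicate block, -0.00128 with no filter and -0.0332 when thinned, and Irf4 -0.0121 when thinned. The interaction turned to 8.16 (Igkc) and 0.413 (Stmn1) without cells with other markers, and to 4.15 and 0.240 when thinned. Leaving out 1 library gave -0.105 to 0.780 for Pou5f1 against Ccl4-negative cells. Against Il2-producing cells it gave -0.146 to 0.137 for Rgs10, -0.0309 to 0.160 for Rgs19 and -0.0103 to 0.167 for Icos. With no sex or genotype term, it gave -1.08 to 0.0178 for Gm42418 between genotypes and -1.05 to 0.0756 for Lars2 between sexes. Both were highest without the female library labelled wild type. For the interaction it gave -6.59 to 4.53 for Igkc and -1.08 to 0.0616 for Hmgb2, both highest without the male library labelled wild type. The cause was not tested.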
